A study of Homo sapiens with 6 samples.

Results

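DKK1 is a secreted antagonist of the WNT co-receptor LRP6. Under TGF-β1, it was more abundant in human kidney tubular cells that carried an adenovirus for SIRT4 than in cells that carried a control adenovirus. The genes chosen with DKK1 include ligands, the receptor LRP6, β-catenin and the canonical target AXIN2. Among the 8 of them with reads, the log2 fold changes lay between -0.35 and 0.095. Without replicate 1 of the SIRT4 group, described below, they lay between -0.36 for WNT5B and 0.23 for WNT7B. The mean normalised read count of DKK1 was 5.11 ± 0.192 CPM (SD, n = 3) in the control group and 12.6 ± 1.49 CPM (SD, n = 3) with SIRT4, a 2.47-fold higher level. The 10 genes described here are DKK1, DKK3, AXIN2, WNT5A, WNT5B, WNT7A, WNT7B, LRP6, CTNNB1 and TCF7L2, out of 38100 genes in the deposited tables. They were chosen by name for the difference in DKK1 between these same samples, so their differences between the groups are given as a description. No p-value is printed for them, though calls at p thresholds are counted below. Counts of calls among them stand beside the share or number over all genes, and nothing is read from them. Of the 10 genes, 9 had enough reads to pass the filter on low counts, as did 17720 genes in all, and the remaining one, WNT7A, had no read in any library.

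The cells were HK2, an established line of human proximal tubular epithelial cells with the genotype label WT. The group AdCtrl received an adenovirus with an empty vector, the group AdSirt4 received an adenovirus for SIRT4, and both groups were stimulated with TGF-β1, so that no library shows the cells without TGF-β1 or without virus. Each group has 3 libraries, numbered 1 to 3 in the labels. The promoter that drives SIRT4 in the virus is not given in the sources used here. Titles name HK2 throughout, but the label for the cell line runs through several numbers, and the libraries were taken to be HK2. The study states that n means technical replicates in its in vitro work, and if this covers the sequenced libraries, the SDs and p-values below describe technical spread.

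WNT ligands are secreted proteins that bind Frizzled receptors together with the co-receptors LRP5 or LRP6. This stops a destruction complex, which holds AXIN and APC, from degrading β-catenin, the product of CTNNB1, and β-catenin then acts with TCF/LEF factors such as TCF7L2 on target genes. DKK1 binds LRP6 and blocks this step, and it is itself a known target of β-catenin, as is AXIN2. In the kidney, WNT signalling shapes the tubules during development and is active again in injured and fibrotic tubules.

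Read totals lay between 42102861 and 53677241 in the AdCtrl libraries and between 41537353 and 85684748 in the AdSirt4 libraries. SIRT4 itself had 0.930 ± 0.309 CPM (SD, n = 3) in AdCtrl and 76.0 ± 21.9 CPM (SD, n = 3) in AdSirt4, in which replicate 1 was lowest with 51.2 CPM. Across the 17720 tested genes, the deviation of AdSirt4 replicate 1 from the other AdSirt4 libraries ran with gene length (Spearman correlation -0.58 across genes), and that of replicates 2 and 3, each against a mean that holds replicate 1, ran the other way (0.50 and 0.51), against -0.18 to 0.17 for the AdCtrl libraries. Values without AdSirt4 replicate 1 are given below where they turn the direction or move a value by over 1.5 times. Of 8 epithelial and kidney markers, 7 had at least 1 CPM in every library, and CDH1 did not, with 0.504 to 0.869 CPM. Their summed level was 1645 to 1712 CPM in AdCtrl and 1587 to 2165 CPM in AdSirt4. Of 8 markers of the mature proximal tubule, only GGT1 and SLC5A2 reached 1 CPM in every library, and the defining genes LRP2, CUBN, AQP1 and HNF4A were at or near 0, with at most 0.273 CPM. These markers summed to 229.0 to 250.4 CPM in AdCtrl and 212.5 to 222.6 CPM in AdSirt4, nearly all from GGT1, with 210.2 to 247.2 CPM. Fibroblast markers summed to 41.7 to 45.1 CPM and 39.9 to 40.8 CPM, with LUM and COL1A1 above 1 CPM in every library and COL3A1 without a read. Leukocyte markers summed to 31.8 to 37.2 CPM and 36.6 to 46.5 CPM, nearly all from CD68. Endothelial and podocyte markers stayed below 1 CPM in every library. Whether the marker levels have a part in the differences below was not tested.

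DKK1 (Entrez 22943) lies on chromosome 10 at chr10:52314281-52317657 of hg38. It had 5.33, 5.04 and 4.96 CPM in AdCtrl replicates 1 to 3 and 14.3, 11.6 and 12.0 CPM in AdSirt4 replicates 1 to 3. The 3 AdCtrl libraries were close together and all 3 AdSirt4 libraries lay above them, with the lowest AdSirt4 value at 2.17 times the highest AdCtrl value. The reads behind these values were 288, 214 and 255 in AdCtrl and 558, 996 and 974 in AdSirt4, so DKK1 is a gene of modest depth, and 40.1% of the tested genes had a lower mean CPM. The fitted log2 fold change of DKK1 was 1.30 (SE 0.12). The ratio of AdSirt4 to AdCtrl for libraries with the same number was 2.69, 2.29 and 2.41, so each pair was higher in AdSirt4 by a similar ratio. By log2 fold change DKK1 was number 76 of the 17720 tested genes, counted from the highest, a place that restates the difference for which it was chosen. AdSirt4 replicate 1 had the highest DKK1 and the lowest SIRT4 of its group, and the log2 fold change of DKK1 was 1.20 without this library and 1.23 once each library's trend on gene length had been removed. In bulk RNA, more cells with DKK1 and more DKK1 RNA per cell cannot be told apart.

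**Figure D1:**
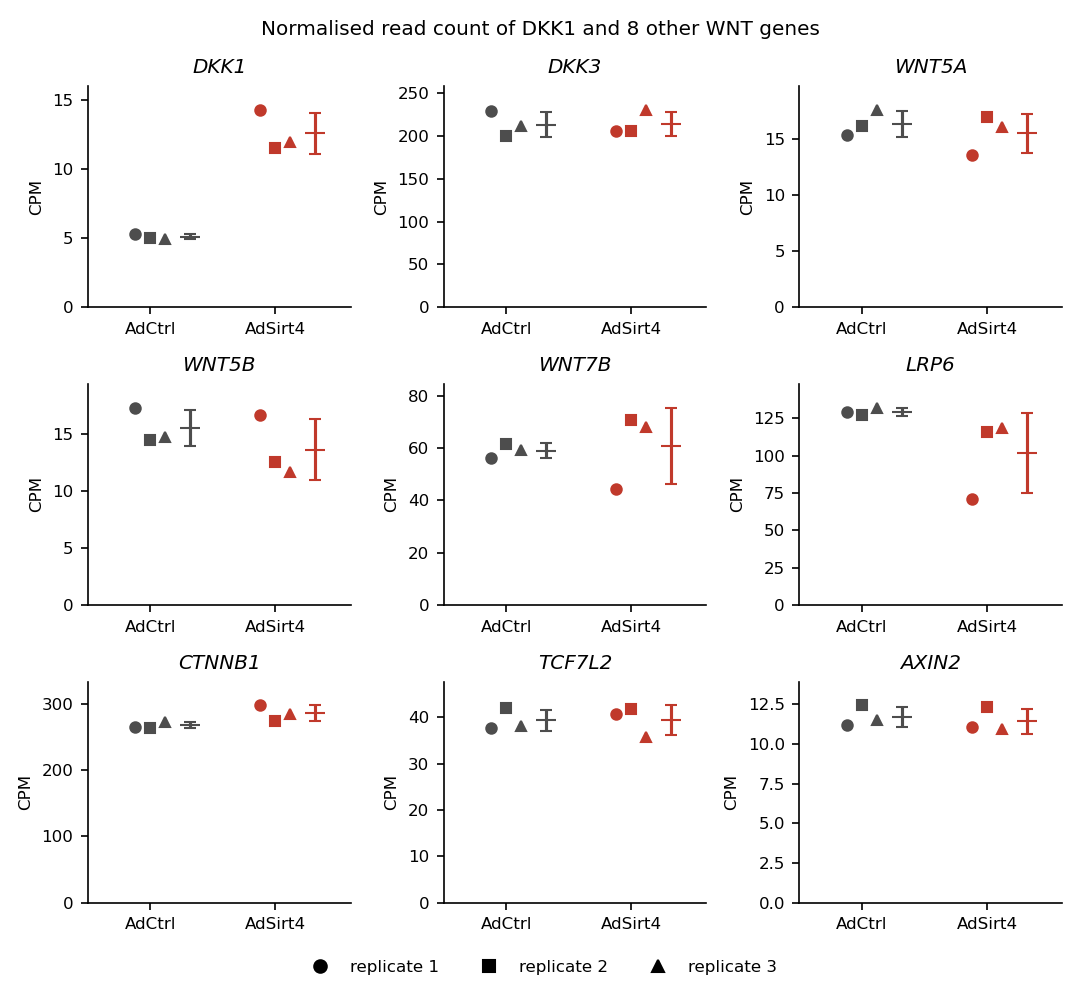
CPM of DKK1 and the 8 other WNT genes with reads in each AdCtrl (grey) and AdSirt4 (red) library, with marker shape giving the replicate number and bars the mean ± SD of 3 libraries on an axis from 0. DKK1 sits between 4.96 and 5.33 CPM in AdCtrl and between 11.6 and 14.3 CPM in AdSirt4, while DKK3, WNT5A, TCF7L2 and AXIN2 cover overlapping ranges.

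The start of DKK1 is shown because it carries letters that TCF/LEF factors are known to read. It is set next to the start of CTNNB1, the only other gene of the 10 with all AdSirt4 CPM values above all AdCtrl values. For CTNNB1 the groups overlapped in FPKM, and the log2 fold change was about the size of its standard error, as described below. Both windows run from 250 bases before to 50 bases after the annotated start, on the plus strand of GRCh38.p14 as RefSeq gives it, at chr10:52314031-52314330 for DKK1 and chr3:41199255-41199554 for CTNNB1. Capitals mark a TCF/LEF motif, the letters CTTTG followed by any pair made of A and T, which was searched on both strands.
DKK1: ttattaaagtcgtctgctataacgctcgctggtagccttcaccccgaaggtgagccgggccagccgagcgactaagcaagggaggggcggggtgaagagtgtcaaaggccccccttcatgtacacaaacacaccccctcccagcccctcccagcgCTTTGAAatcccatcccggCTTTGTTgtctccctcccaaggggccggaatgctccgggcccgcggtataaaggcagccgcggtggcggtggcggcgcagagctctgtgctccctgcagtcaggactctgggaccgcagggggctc
CTNNB1: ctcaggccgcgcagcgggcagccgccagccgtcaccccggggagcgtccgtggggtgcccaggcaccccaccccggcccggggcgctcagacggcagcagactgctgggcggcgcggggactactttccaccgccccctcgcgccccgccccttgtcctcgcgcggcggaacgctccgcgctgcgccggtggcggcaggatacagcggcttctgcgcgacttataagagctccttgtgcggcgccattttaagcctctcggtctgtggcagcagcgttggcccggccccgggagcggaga
The DKK1 window held CTTTGAA with its first base at -95 and CTTTGTT at -76, counted from the start, and a TATAAA box at -30. The CTNNB1 window held neither motif. Over all 35116 RefSeq windows of this length, 13.8% held the TCF/LEF motif, 11.5% held TATAAA and 2.58% held both. Windows were at hand for 6 of the 10 genes, 10 windows in all, and the only other TCF/LEF match was CTTTGTT at -133 in 1 window of TCF7L2. Of the rest, 1 window of WNT5B held TATAAA on the minus strand at -78. These matches describe the sequence and were not tested as binding sites. As the DKK1 window was printed because of its matches, nothing is read from the shares over all windows.

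DKK3 (Entrez 27122, chr11:11963036-12009745) is a secreted relative of DKK1 that does not block LRP6 in the same way. It had 228.8, 199.8 and 211.2 CPM in AdCtrl and 206.0, 205.6 and 230.7 CPM in AdSirt4, with a log2 fold change of 0.0056 (SE 0.10), or 0.027 without AdSirt4 replicate 1. The 2 groups covered nearly the same range. Per gene length DKK3 was far above DKK1, and the ratio of their FPKM was 30.1, 27.8 and 29.5 in AdCtrl and 10.1, 12.3 and 13.2 in AdSirt4. The mean ratio of FPKM was thus 29.1 ± 1.18 in AdCtrl and 11.9 ± 1.61 in AdSirt4 (SD, n = 3), without overlap between the groups. As DKK3 hardly differed, this ratio restates the DKK1 difference for which the genes were chosen.

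Among the ligands, WNT5A and WNT5B are close paralogs best known for β-catenin-independent signalling, and WNT7A and WNT7B are paralogs of epithelia. WNT7B (Entrez 7477, chr22:45920366-45977162) had the highest level of them, with 56.2, 61.6 and 59.4 CPM in AdCtrl and 44.2, 70.6 and 68.0 CPM in AdSirt4. AdSirt4 replicate 1 lay below all AdCtrl libraries and the other AdSirt4 libraries lay above them, so the log2 fold change of 0.047 (SE 0.18) became 0.23 without AdSirt4 replicate 1. WNT5B (Entrez 81029, chr12:1617056-1647212) had 17.4, 14.5 and 14.8 CPM in AdCtrl and 16.7, 12.6 and 11.7 CPM in AdSirt4. Here AdSirt4 replicate 1 lay within the AdCtrl range and the other AdSirt4 libraries lay below it, and the log2 fold change was -0.19 (SE 0.16) with all libraries and -0.36 without replicate 1. WNT5A (Entrez 7474, chr3:55465715-55505263) had 15.4, 16.2 and 17.7 CPM in AdCtrl and 13.6, 17.0 and 16.1 CPM in AdSirt4. Its groups overlapped, and its log2 fold change was -0.073 (SE 0.12), or 0.0083 without AdSirt4 replicate 1.

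WNT7A (Entrez 7476, chr3:13816258-13880071) had no read in the 6 libraries, which allows up to 0.0348 CPM in the deepest and 0.0770 CPM in the shallowest library from counting error alone. The ratio of WNT5B to WNT5A in FPKM was 2.51 ± 0.353 in AdCtrl and 2.40 ± 0.771 in AdSirt4 (SD, n = 3), and that of WNT7B to WNT5B was 2.15 ± 0.283 and 2.61 ± 0.993. Neither ratio separated the groups, and both had a wider spread in AdSirt4, where replicate 1 gave the highest WNT5B to WNT5A ratio, 3.29, and the lowest WNT7B to WNT5B ratio, 1.47.

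LRP6 (Entrez 4040, chr12:12116025-12267044), the receptor that DKK1 binds, had 128.9, 126.8 and 132.1 CPM in AdCtrl and 70.8, 115.6 and 118.7 CPM in AdSirt4. All AdSirt4 libraries lay below all AdCtrl libraries, but replicate 1 was far below the other AdSirt4 libraries. The log2 fold change was -0.35 (SE 0.20) with all libraries, -0.15 without AdSirt4 replicate 1 and -0.23 with the trend on gene length removed. With 11.5 kb, LRP6 is the longest of the 10 genes by the length that counts and FPKM imply. The ratio of DKK1 to LRP6 in FPKM was 0.229, 0.222 and 0.207 in AdCtrl and 1.13, 0.558 and 0.563 in AdSirt4, so this ratio was higher in all 3 AdSirt4 libraries than in any AdCtrl library. It restates the DKK1 difference for which the genes were chosen, together with that of LRP6. LRP6 had 5.69 FPKM in AdSirt4 replicate 1 and 10.1 and 10.5 FPKM in AdSirt4 replicates 2 and 3.

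**Figure D2:**
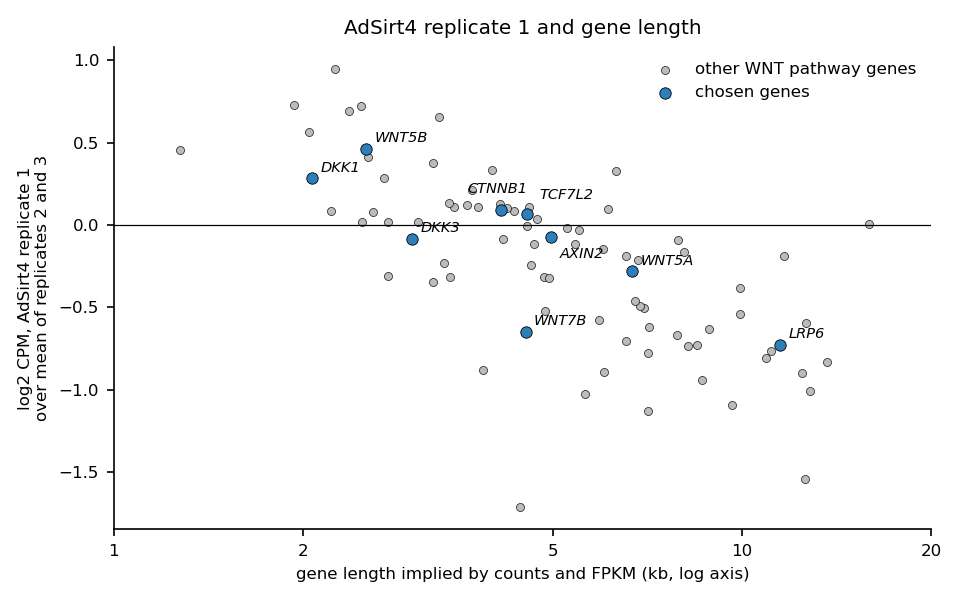
Log2 of the CPM in AdSirt4 replicate 1 over the mean of AdSirt4 replicates 2 and 3 (vertical) against the gene length implied by counts and FPKM in kb on a log axis, for the chosen genes (blue) and the other tested WNT pathway genes (grey). DKK1, at 2.07 kb, lies at 0.28 and LRP6, at 11.5 kb, lies at -0.73, and WNT7B lies at -0.65 with a length of 4.52 kb.

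CTNNB1 (Entrez 1499, chr3:41199505-41240443) had 265.4, 263.6 and 272.2 CPM in AdCtrl and 297.5, 273.5 and 284.6 CPM in AdSirt4. The AdSirt4 libraries lay above the AdCtrl libraries by a narrow margin, and on the FPKM scale the groups overlapped. The log2 fold change was 0.095 (SE 0.094), about the size of its standard error, and 0.059 without AdSirt4 replicate 1. TCF7L2 (Entrez 6934, chr10:112950247-113167678), the factor that brings β-catenin to DNA, had 37.7, 42.0 and 38.2 CPM in AdCtrl and 40.6, 41.8 and 35.8 CPM in AdSirt4, with a log2 fold change of 0.0036 (SE 0.10), or -0.022 without AdSirt4 replicate 1. The ratio of CTNNB1 to TCF7L2 in FPKM was 7.51 ± 0.583 in AdCtrl and 7.99 ± 0.774 in AdSirt4 (SD, n = 3), with overlapping groups. A noncoding gene within TCF7L2, LOC124902502, had mean levels of 0.170 and 0.218 CPM, and the library protocol names no step that marks strand, so reads of overlapping genes may be shared.

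AXIN2 (Entrez 8313, chr17:65528563-65561648), a scaffold of the destruction complex that β-catenin induces as feedback, had 11.2, 12.4 and 11.5 CPM in AdCtrl and 11.0, 12.3 and 10.9 CPM in AdSirt4. The groups overlapped, and the log2 fold change was -0.033 (SE 0.11), or -0.012 without AdSirt4 replicate 1. The 2 feedback genes of the set thus gave different values in the same libraries, 1.30 for DKK1 and -0.033 for AXIN2 on the log2 scale. For AXIN2 the same-number ratios of AdSirt4 to AdCtrl were 0.986, 0.993 and 0.950.

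In AdCtrl, the order of the genes by mean FPKM (reads per gene length and library size, with n = 3) was DKK3 (72.7 ± 5.82), CTNNB1 (65.4 ± 3.21), WNT7B (13.2 ± 0.638), LRP6 (11.4 ± 0.667), TCF7L2 (8.72 ± 0.360), WNT5B (6.17 ± 0.588), DKK1 (2.49 ± 0.101), WNT5A (2.47 ± 0.203) and AXIN2 (2.38 ± 0.0850), with WNT7A at 0. The ranges of DKK3 and CTNNB1 overlapped, as did those of DKK1, WNT5A and AXIN2 as neighbours in this order. In AdSirt4, DKK1 stood at 6.00 ± 0.404 FPKM, above WNT5B at 5.33 ± 0.777 FPKM, with overlapping ranges. It also stood clear of WNT5A at 2.29 ± 0.358 FPKM and AXIN2 at 2.26 ± 0.235 FPKM, beside which it had been in AdCtrl. The other genes kept their order, and LRP6 stood at 8.77 ± 2.67 FPKM, where its range overlapped those of WNT7B and TCF7L2.

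**Figure D3:**
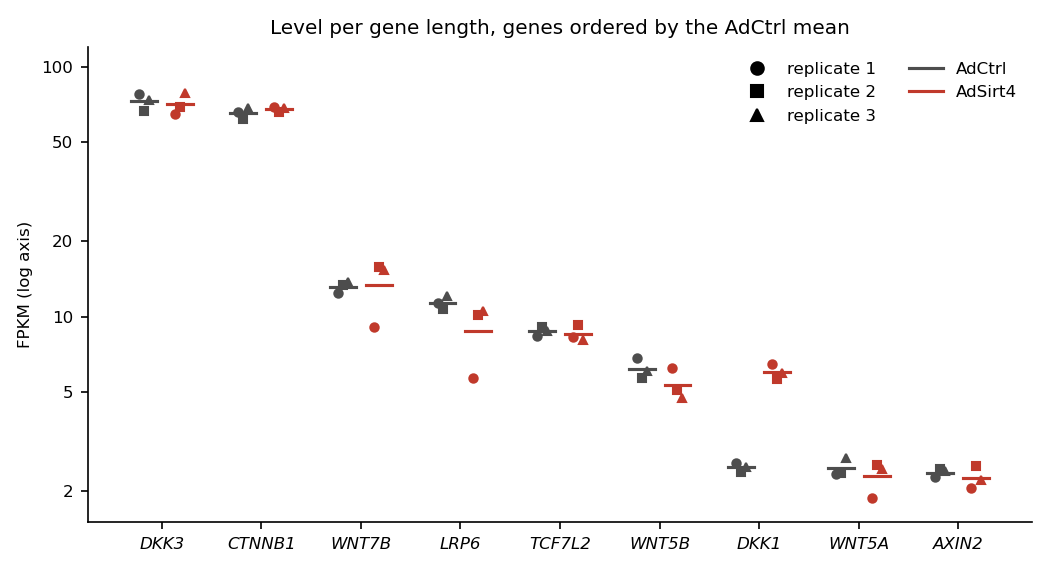
FPKM of the 9 genes with reads, on a log axis and ordered by the AdCtrl mean, with a point for each library (shape gives the replicate number) and a line for the mean of 3 libraries in AdCtrl (grey) and AdSirt4 (red). DKK1 lies at 2.49 FPKM in AdCtrl, level with WNT5A and AXIN2, and at 6.00 FPKM in AdSirt4, level with WNT5B.

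The 3 genes whose groups did not overlap were DKK1 and CTNNB1, which were higher, and LRP6, which was lower, out of 9 genes with reads. Over all tested genes the groups did not overlap for 19.4%. Without AdSirt4 replicate 1, WNT5B and WNT7B joined them, 5 of 9 genes, beside 41.8% of all tested genes. The median log2 fold change of the 9 genes was 0.0036, beside 0.021 for all genes tested, and without AdSirt4 replicate 1 these medians were 0.0083 and -0.0046. By the quasi-likelihood test of edgeR, adjusted by Benjamini-Hochberg, 0 of the 9 genes had an adjusted p under 0.05, beside 0.0113% of all genes tested (2 genes, or 1 gene with the replicate block), and 1, DKK1, had an unadjusted p under 0.05, beside 7.93%. At an adjusted p under 0.05, DESeq2 called DKK1 alone among the 9, beside 1.2% of all genes tested. Limma voom with sample quality weights called DKK1 and WNT5B, beside 8.94%, and edgeR without AdSirt4 replicate 1 called DKK1, WNT5B and WNT7B, beside 6.71% of all genes tested. Since the genes were chosen on this contrast, nothing is read from these counts.

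The profile of DKK1 over the 6 libraries was set against that of each other gene that passed the filter, as the root mean square difference of log2 CPM after each profile was centred on its own mean. The 5 genes with the smallest difference were CLEC4E (0.0989), LOC105373126 (0.128), LOC102724378 (0.131), LOC107986432 (0.149) and NDRG1 (0.162). CLEC4E, an innate immune receptor, had 7.66, 8.05 and 7.65 CPM in AdCtrl and 21.6, 17.0 and 21.3 CPM in AdSirt4. NDRG1, a gene known to respond to hypoxia and stress, had 86.4, 84.5 and 78.8 CPM in AdCtrl and 180.8, 165.5 and 151.9 CPM in AdSirt4. The 3 unnamed loci were at most at 0.616 CPM. For the 8 other chosen genes with reads the differences ran from 0.603 for CTNNB1 to 0.903 for LRP6. The difference of DKK1 between the groups enters this measure, so it restates the contrast on which the genes were chosen.

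The other genes of the pathway were taken from a list of 106 genes in 12 roles, written without the 10 genes above. All were in the tables, 8 had no read and 77 passed the filter. Of these 77 genes, 26 had a log2 fold change above 0 and 51 below, with a median of -0.053, beside 9459 above and 8261 below over all genes tested. Without AdSirt4 replicate 1, the same 77 genes had 40 above 0 and 37 below, with a median of 0.00098, so the tilt to lower values came with that library. By the same edgeR test, adjusted over all genes, 0 of 77 had an adjusted p under 0.05, as with DESeq2. An unadjusted p under 0.05 was found for 3, namely CCND1, MYC and FZD4, or 3.9%, beside 7.93% of all genes tested. The groups did not overlap for 14 of 77 genes (6 higher, 8 lower), or 18.2%, close to the 19.4% over all genes.

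DKK1 was the only DKK antagonist of LRP6 with reads in these cells, since DKK2 and DKK4 had none in any library. Of the 11 listed secreted inhibitors, FRZB, NOTUM and SFRP4 passed the filter, all at low levels, with a mean of at most 2.35 FPKM in AdCtrl, and none passed the test. FRZB had 0.795, 0.471 and 1.44 CPM in AdCtrl and 0.513, 0.336 and 0.677 CPM in AdSirt4 (log2 fold change -0.83, SE 0.46, edgeR adjusted p = 0.704). The DKK co-receptors KREMEN1 and KREMEN2, which carry LRP6 with DKK1 into the cell, had log2 fold changes of -0.053 and -0.034 with all libraries. KREMEN1 had 23.8 CPM in AdSirt4 replicate 1 and 39.8 and 41.6 CPM in the others, and its log2 fold change was 0.16 without that library. For KREMEN2, AdSirt4 replicate 1 had 20.4 CPM and the others 10.8 and 10.3 CPM, against 13.3 to 15.7 CPM in AdCtrl, and its log2 fold change was -0.42 without that library.

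Of the 13 receptors that passed the filter, FZD4, a Frizzled that also binds norrin, had the smallest p. It had 13.9, 15.7 and 15.8 CPM in AdCtrl and 6.39, 9.42 and 11.8 CPM in AdSirt4, a log2 fold change of -0.71 (SE 0.21, edgeR adjusted p = 0.533). The groups did not overlap, but the AdSirt4 libraries were spread and the difference did not pass the adjusted threshold. FZD6 had the highest level per length of the receptors (50.9 FPKM in AdCtrl, 57.1 FPKM in AdSirt4) and a log2 fold change of 0.20 (SE 0.093, edgeR adjusted p = 0.668). LRP5, the paralog of LRP6, had 73.6, 69.7 and 68.9 CPM in AdCtrl and 44.7, 68.3 and 64.9 CPM in AdSirt4, and its log2 fold change went from -0.25 to -0.092 without AdSirt4 replicate 1. None of the 6 ligands tested had an adjusted p under 0.05, and WNT2B was the highest per length with 1.75 FPKM in AdCtrl, below WNT7B and WNT5B. WLS, which carries ligands to the cell surface, was at 47.4 and 43.0 FPKM (log2 fold change -0.079, edgeR adjusted p = 0.796).

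Inside the cell, the 3 Dishevelled genes, the 13 genes of the destruction complex and its regulators and the 13 nuclear effectors and corepressors all passed the filter, and none had an adjusted p under 0.05. Their median log2 fold changes were -0.10, -0.068 and -0.10 with all libraries and -0.036, 0.0058 and -0.068 without AdSirt4 replicate 1. TNKS, whose product marks AXIN proteins for degradation, had 75.5, 70.4 and 81.5 CPM in AdCtrl and 38.8, 65.2 and 70.6 CPM in AdSirt4 (log2 fold change -0.38, SE 0.22, edgeR adjusted p = 0.706, and -0.16 without AdSirt4 replicate 1). TLE4, a corepressor of TCF factors, had 44.3, 47.9 and 43.5 CPM in AdCtrl and 37.0, 39.4 and 40.5 CPM in AdSirt4 (log2 fold change -0.21, SE 0.092, edgeR adjusted p = 0.630). TLE5, the highest of this group at 83.8 and 94.4 FPKM, had overlapping groups. Its log2 fold change was 0.22, or 0.00063 without AdSirt4 replicate 1. BTRC and TNKS2 had log2 fold changes of -0.20 and -0.23, or -0.061 and -0.054 without AdSirt4 replicate 1. TLE3 and PYGO1 both had -0.18, or -0.12 and -0.068 without it. DVL1, DVL2 and DVL3 had -0.026, -0.10 and -0.22, or -0.11, -0.036 and 0.014 without it.

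The roles at the edges of the pathway held no gene with an adjusted p under 0.05 in the same edgeR fit. RSPO3, an R-spondin that sustains WNT receptors, had 16.6, 16.7 and 16.8 CPM in AdCtrl and 14.7, 14.0 and 16.0 CPM in AdSirt4 (log2 fold change -0.16, SE 0.095, edgeR adjusted p = 0.710). Its receptor LGR4 had a log2 fold change of 0.0069, or 0.049 without AdSirt4 replicate 1, at 18.3 and 18.0 FPKM. The ubiquitin ligases RNF43 and ZNRF3, which remove Frizzled receptors from the surface and are feedback targets of WNT signalling, had log2 fold changes of -0.13 and -0.11, which turned to 0.063 and 0.078 without AdSirt4 replicate 1. Of the 9 planar polarity genes tested, 3 were above 0 and 6 below, from -0.38 for CELSR2 to 0.16 for SCRIB, and without AdSirt4 replicate 1 these were 6 above and 3 below, with -0.034 for CELSR2 and 0.036 for SCRIB. CELSR2, a cadherin of planar polarity, had 203.3, 197.4 and 201.3 CPM in AdCtrl and 67.4, 190.5 and 202.9 CPM in AdSirt4, so that only AdSirt4 replicate 1 stood apart.

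**Figure D4:**
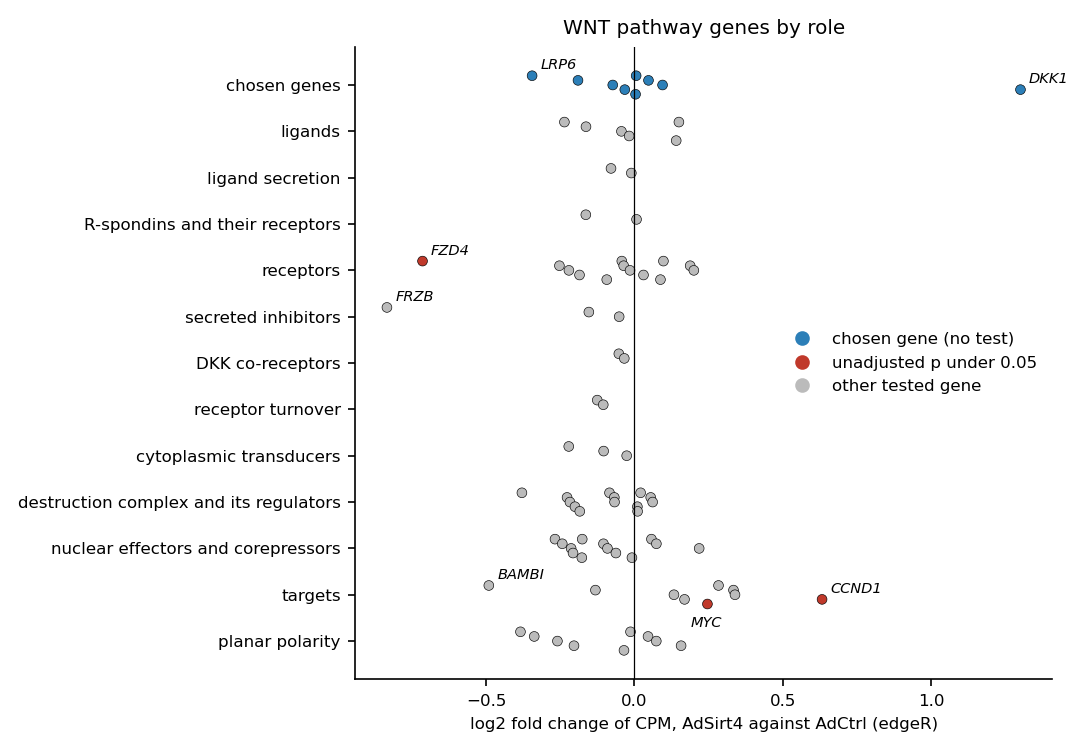
Log2 fold change of CPM in AdSirt4 against AdCtrl from the edgeR fit to 6 libraries, 1 point per tested gene, by role, with the chosen genes in blue (given without a test), genes with an unadjusted p under 0.05 in red and the others in grey. DKK1 lies at 1.30, to the right of all 77 other tested pathway genes, which run from -0.83 for FRZB to 0.63 for CCND1. The genes were chosen for the DKK1 difference, so nothing is read from its place.

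The 9 listed β-catenin targets that passed the filter had a median log2 fold change of 0.25, with 7 above 0 and 2 below. CCND1, the cyclin D1 gene, had 26.6, 29.1 and 26.3 CPM in AdCtrl and 32.8, 43.0 and 51.2 CPM in AdSirt4, a log2 fold change of 0.63 (SE 0.17, edgeR adjusted p = 0.494). MYC had 124.2, 119.3 and 139.4 CPM in AdCtrl and 150.8, 150.2 and 153.0 CPM in AdSirt4, a log2 fold change of 0.25 (SE 0.097, edgeR adjusted p = 0.612). Both genes had all AdSirt4 libraries above all AdCtrl libraries, and both respond to many signals besides WNT. MMP7, a matrix protease, was the target with the highest level per length at 471.7 and 579.0 FPKM, with a log2 fold change of 0.34 (SE 0.16, edgeR adjusted p = 0.668), or 0.17 without AdSirt4 replicate 1. BAMBI, a pseudoreceptor that dampens TGF-β signalling, had 21.5, 18.1 and 20.3 CPM in AdCtrl and 19.4, 12.3 and 11.1 CPM in AdSirt4 (log2 fold change -0.49, SE 0.22, edgeR adjusted p = 0.640, and -0.78 without AdSirt4 replicate 1). The targets thus spread to both sides of 0, with AXIN2 between them and DKK1, chosen for its difference, above all of them.

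Without AdSirt4 replicate 1, edgeR called 10 of 80 tested pathway genes at an adjusted p under 0.05, or 12.5%, beside 6.71% of all genes. The 7 higher genes were CCND1, EPHB2, MYC, CD44, ROR1, BCL9L and CELSR3, and the 3 lower genes were FZD4, BAMBI and KREMEN2. Of these, 5 were from the 10 targets tested in that fit. For CCND1 the log2 fold change was 0.78 and the adjusted p 0.000719 in that fit, and over all alternatives the adjusted p of CCND1 ran from 0.000719 to 0.971. The fit rests on 2 AdSirt4 libraries, and a call there is not a call with all 6.

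**Figure D5:**
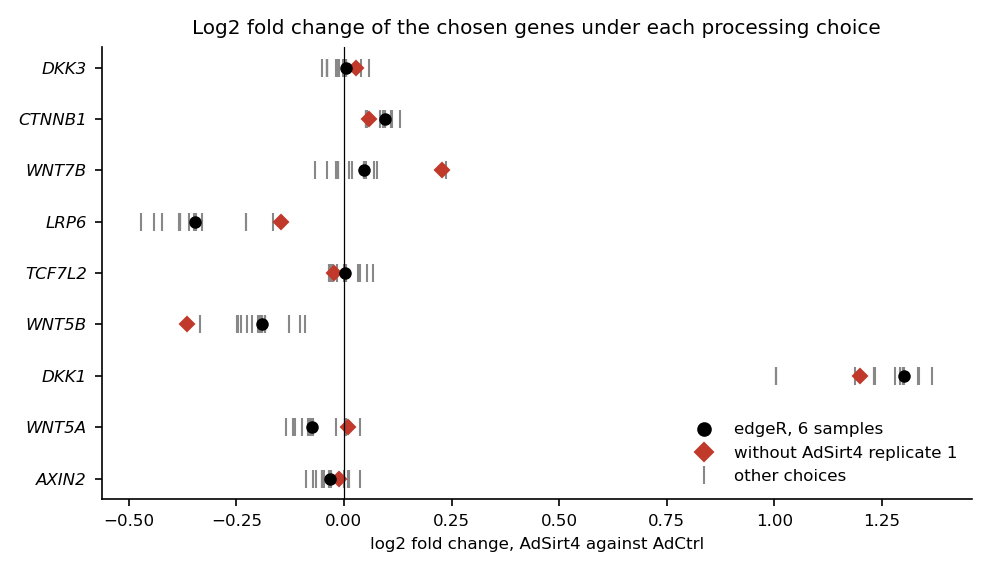
Log2 fold change of each of the 9 genes with reads in AdSirt4 against AdCtrl, with all 6 libraries and edgeR (black), without AdSirt4 replicate 1 (red) and under each other processing choice (grey ticks). DKK1 stays between 1.00 and 1.37, LRP6 and WNT5B stay below 0, CTNNB1 stays above 0, and the other 5 genes have values on both sides of 0.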

How the data were processed

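Poly(A) RNA of 6 HK2 samples (3 AdCtrl, 3 AdSirt4, all with TGF-β1) was sequenced. The authors deposited unnormalized read counts per gene and, beside them, values that were read as FPKM. Nothing names the unit of these deposited FPKM values, and it was inferred from the values. The submitters' processing notes name fastp 0.21.0, HISAT2 2.1.0, StringTie 2.1.5, DESeq2 1.30.1 and hg38. Gene positions and sequences are from RefSeq on GRCh38.p14. No per-sample column was left without a sample.

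Counts were compared with edgeR 4.0.16 in R 4.3.3 (filterByExpr with a minimum count of 10, TMM scaling, robust quasi-likelihood test, Benjamini-Hochberg adjustment over all genes tested, threshold 0.05). CPM are counts over TMM-scaled library sizes, given as mean ± SD. A count of 0 allows up to 3 counts, for counting error only. The profiles were compared as log2(CPM + 0.05). Alternatives were DESeq2 1.42.0, limma 3.58.1 on log2(FPKM + 1) or log2(FPKM + 0.1) and with voom sample weights, RLE scaling, other filters, removal of each library's lowess trend on gene length (span 0.3), the replicate number as a block, and leaving out each library. Tables and figures were made with Python 3.11.15, numpy 2.4.6, pandas 2.3.3 and matplotlib 3.10.9. The procedure was tested on simulated data.

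Libraries with the same number deviated from their group means together, though weakly (Pearson r across genes 0.178, 0.159 and 0.176, against -0.188 to 0.0298 for the others). By this check the numbers may pair the libraries, but 3 libraries a group cannot settle it. The main fit left the numbers out, and the fits with the replicate block took them in. The labels do not say what a number marks. No library was a copy of another.

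The 10 genes and the gene lists were chosen with earlier results of these data known. Genes named besides the 10 came from a rule that takes SIRT4, in each role of the pathway list the up to 3 genes with the smallest p and the gene with the highest FPKM, and the 5 genes most like DKK1. Genes called without AdSirt4 replicate 1, genes without a read and genes of the marker lists were named after their values had been seen.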

Additional observations from a re-analysis of the deposited data

How the results depend on the processing

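Across 18 alternatives, the log2 fold change of DKK1 ran from 1.00 to 1.37. It was 1.00 in the 3 limma fits to log2(FPKM + 1) (all genes, the replicate block added, and a mean FPKM floor of 1), a scale that understates the change of low genes, and 1.20 to 1.37 with 1 library left out. The other 8 genes with reads moved by less than 1 SD between replicates in all 18 alternatives, 144 values in all. That SD holds AdSirt4 replicate 1, so it cannot show whether leaving this library out matters. Without it LRP6 went from -0.35 to -0.15, WNT5B from -0.19 to -0.36 and WNT7B from 0.047 to 0.23. The sign of the change differed from the reported one in 10 of 18 fits for DKK3, 8 for TCF7L2, 6 for WNT7B, 5 for AXIN2 and 4 for WNT5A. Among the 9 genes, DKK1 alone passed the adjusted threshold in 6 alternatives, which called 4 to 212 genes over the whole table. These were DESeq2, all genes with 1 count and at least 10 counts in every library. The others were the FPKM floor and the length trend removed with or without the block. None of the 9 passed with RLE scaling, the replicate block alone or the other limma fits to FPKM. None passed with 1 library left out either, unless that library was AdSirt4 replicate 1. DKK1 was chosen on this contrast, so its calls are no support for its difference. Of the 9 genes, those whose groups did not overlap numbered 5 without AdSirt4 replicate 1, beside 41.8% of all tested genes. On the FPKM scale the groups of CTNNB1 overlapped, and without AdSirt4 replicate 2 those of AXIN2 did not. With any other library left out the genes were DKK1, LRP6 and CTNNB1, as in the main fit. The share over all genes is not given for those settings, so nothing is read from these changes.

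Of the other 77 pathway genes, 0 passed the adjusted threshold in edgeR. With limma voom and sample quality weights 9 passed (6 higher, 3 lower), beside 8.94% of all genes tested. With 1 library left out 0 to 10 passed, 10 being without AdSirt4 replicate 1, beside 6.71% of all genes in that fit. In edgeR the count at an unadjusted p under 0.05 was 3, or 3.9%, beside 7.93% of all genes tested. It was 7 with DESeq2, 11 after removal of the trend on length and 11 with that removal plus the replicate block. With the sample weights it was 22, and with 1 library left out 2 to 19. With the replicate block alone, 0 pathway genes had an adjusted p under 0.05 and 4 an unadjusted p under 0.05. The share over all genes at an unadjusted p is given for the main fit only, so nothing is read from the other unadjusted counts. Over all genes, the block alone called 1 gene instead of 2. With the block the 4 genes were CCND1 (higher), FZD4, FRZB and BAMBI (lower), so MYC was lost. Added to the removal of the length trend, the block took the calls over all genes from 12 (12 higher) to 6 (4 higher). The depth limits WNT7A and the genes without reads to the stated floor, and 3 libraries a group limit every small difference.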
